A study of Rattus norvegicus with 9 samples.

Results

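The receptors through which Pdgf, Egf and Fgf ligands act, and the ligand gene Fgf10, were followed in rat pXEN cells grown in 3 media. The genes are Pdgfra, Pdgfrb, Egfr, Erbb2, Erbb3, Fgfr1, Fgfr2, Fgfr3, Fgfr4 and Fgf10, chosen by name, which makes 10 of the 17315 genes listed in the count tables. All 10 were listed, and 8 of them had enough counts to be tested. Pdgfrb and Egfr did not.

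The receptors are tyrosine kinases: a ligand brings receptor chains together, and the chains then phosphorylate each other and recruit adaptors that start the Ras/Erk and PI3 kinase cascades. The Pdgf receptors pair as dimers of the alpha and beta chains, Erbb3 has little kinase activity of its own and signals with a partner such as Erbb2, and Fgf receptors bind their ligands together with heparan sulphate. Pdgfra is a well-known marker of the primitive endoderm, and Fgf10 is best known as a mesenchymal signal that acts mainly through an Fgfr2 splice form.

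pXEN cells are cultured stem cells of the primitive extraembryonic endoderm, the early lineage that forms yolk sac endoderm. All 9 libraries came from a single line, RX1, of the WKY strain, with 3 libraries per medium, and Pdgf and Egf were present at 10 ng/ml each in every culture. The T medium (DMEM/MCDB) also held 2% serum, 0.5 µM dexamethasone and 10 ng/ml Lif, over a fibronectin coat. LPE (DMEM/F12 with Neurobasal, N2 and B27) held 10 ng/ml Lif and no serum or dexamethasone, over collagen I. CPE was the LPE culture with 1 µM Chir99021, a Gsk3 inhibitor, in place of Lif. LPE and T thus differ in serum, dexamethasone, basal medium, supplements (N2 and B27) and coat at once, and the separate effects of these cannot be told apart. CPE and LPE differ in Lif and Chir99021 at once, and CPE and T differ in all of these. In those comparisons too the separate effects cannot be told apart. No label says that the 3 libraries of a medium were separate cultures, so p-values reflect the spread among them alone, and that spread may be technical.

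Gene reads came to 1698764 to 2161228 per library in T, 3119049 to 3233526 in LPE and 3127352 to 4418465 in CPE, so that 1 read equals 0.227 to 0.579 counts per 1e6 gene reads (CPM). Between replicates the variance, in units of the sampling variance, was 1.94 to 4.26 in T, 10.9 to 17.6 in LPE and 11.03 to 14.2 in CPE. Genes with any count numbered 10143 to 10621 per library in T, 8607 to 9314 in LPE and 9162 to 9878 in CPE. Genes with exactly 1 count numbered 511 to 791, 26 to 58 and 33 to 92 in the same order. Limits drawn from 0 counts may thus be too tight in LPE and CPE, though these had more reads. Summed over the 11 listed pXEN and primitive endoderm markers, all with counts in every medium, the level was 6276 to 6778, 7375 to 7904 and 5457 to 6360 CPM in T, LPE and CPE. Of markers of other cells, the fibroblast genes Col1a2, Dcn and Lum were at 0 in all libraries, and the summed list of 10 ran from 54.9 to 88.6, 47.0 to 52.2 and 70.2 to 82.0 CPM in the same order. Most of that sum was Fbln1 (51.6 ± 5.13, 49.7 ± 2.63 and 71.5 ± 9.17 CPM). The collagen genes Col1a1 and Col3a1 had 23, 37 and 1 counts and 3, 17 and 2 counts in T, and both had 0 counts in every LPE and CPE library. The 8 listed trophoblast markers summed to 1.39 to 3.27, 0 to 3.11 and 14.3 to 35.8 CPM in T, LPE and CPE, with Hand1, Ascl2, Gcm1 and Prl3d1 at 0 throughout. In CPE, Cdx2 had 28, 0 and 70 counts, Elf5 33, 53 and 18, and Esrrb 0, 10 and 21. Cdx2 had 0 counts in T and LPE, and Elf5 and Esrrb had means of 0.530 and 0.337 CPM in T and 0 in LPE. Tfap2c had 4, 3 and 1 counts in T, 0, 10 and 0 in LPE and 0, 0 and 2 in CPE. Its means of 1.46, 1.04 and 0.215 CPM in T, LPE and CPE were lowest in CPE but rest on these few counts. The 9 endothelial and blood markers summed to 153 to 156, 158 to 218 and 61.0 to 78.3 CPM (Ptprc, Cd34 and Hbb at 0), the 7 epiblast markers to 289.7 to 353, 364 to 449 and 186 to 268 (Nanog, Sox2, Fgf4 and Otx2 at 0) and the 7 neural markers to 34.4 to 39.5, 74.4 to 103 and 40.0 to 82.6 (Pax6 and Olig2 at 0). In the endothelial list, Tek had 123 ± 4.12, 101 ± 15.5 and 49.3 ± 13.6 CPM in T, LPE and CPE. Pecam1 had 23.3 ± 5.59, 47.8 ± 2.34 and 12.7 ± 1.26 CPM. In the epiblast list, Pou5f1 had 253 ± 28.6, 264 ± 54.9 and 132 ± 32.1 CPM. Klf4 had 68.4 ± 12.0, 127 ± 4.73 and 104 ± 17.0 CPM. Within the neural list 2 members ran opposite ways: Tubb3 had 19.5 ± 2.38, 64.3 ± 22.6 and 4.70 ± 4.90 CPM, and Dcx had 2.31 ± 0.530, 3.66 ± 3.73 and 34.3 ± 14.1 CPM. Fbln1, Col1a1, Col3a1, Cdx2, Elf5, Esrrb, Tfap2c, Tek, Pecam1, Pou5f1, Klf4, Tubb3 and Dcx were singled out after their values were seen. The part of these differences in the results was not tested. In bulk RNA, fewer cells with a transcript and less transcript per cell cannot be told apart.

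Promoter sequences are shown for the Pdgf receptor gene with most reads and for the 2 genes with the largest falls in CPE. That medium had the Gsk3 inhibitor and lacked Lif, and a link of either to these sequences was not tested. Each is the 250 bases before the annotated start, 5′ to 3′ on the gene's strand, from RefSeq on build GRCr8, which is not the build of the counts. Capitals mark a match to CTTTGA (reverse strand TCAAAG), the core letters bound by Tcf/Lef factors.
Pdgfra: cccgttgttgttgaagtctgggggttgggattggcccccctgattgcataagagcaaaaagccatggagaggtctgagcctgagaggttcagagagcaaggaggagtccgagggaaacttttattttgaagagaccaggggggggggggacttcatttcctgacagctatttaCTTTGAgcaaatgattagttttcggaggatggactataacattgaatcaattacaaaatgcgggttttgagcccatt
Fgf10: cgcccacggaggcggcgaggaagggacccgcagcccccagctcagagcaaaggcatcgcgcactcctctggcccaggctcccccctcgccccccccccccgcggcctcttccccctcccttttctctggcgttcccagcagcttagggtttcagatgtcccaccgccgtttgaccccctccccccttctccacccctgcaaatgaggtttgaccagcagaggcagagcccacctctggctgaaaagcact
Fgfr3: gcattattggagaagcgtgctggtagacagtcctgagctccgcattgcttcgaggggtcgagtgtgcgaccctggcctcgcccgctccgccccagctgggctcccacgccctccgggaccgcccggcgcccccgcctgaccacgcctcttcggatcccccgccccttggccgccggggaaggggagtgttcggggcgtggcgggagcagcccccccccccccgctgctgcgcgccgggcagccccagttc

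The Pdgfra stretch lies at chr14:33408517-33408766 on the minus strand, the Fgf10 stretch at chr2:52533689-52533938 on the plus strand and the Fgfr3 stretch at chr14:81227210-81227459 on the minus strand. RefSeq promoters were matched for 7 of the 10 genes. Those of Pdgfrb, Erbb3 and Fgfr1 were not used here. Of these 7, Pdgfra alone held CTTTGA, ending 72 bases before the start, and none held AGATAA (reverse TTATCT), the core of Gata sites. CTTTGA was found in 13.9% and AGATAA in 10.3% of the 33469 promoters of that length. G and C made up 47.2% of the Pdgfra stretch, 67.2% of the Fgf10 stretch and 74.4% of the Fgfr3 stretch. A match of 6 letters is a description of the sequence, and no match says only that the letters are not in this window.

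**Figure D1:**
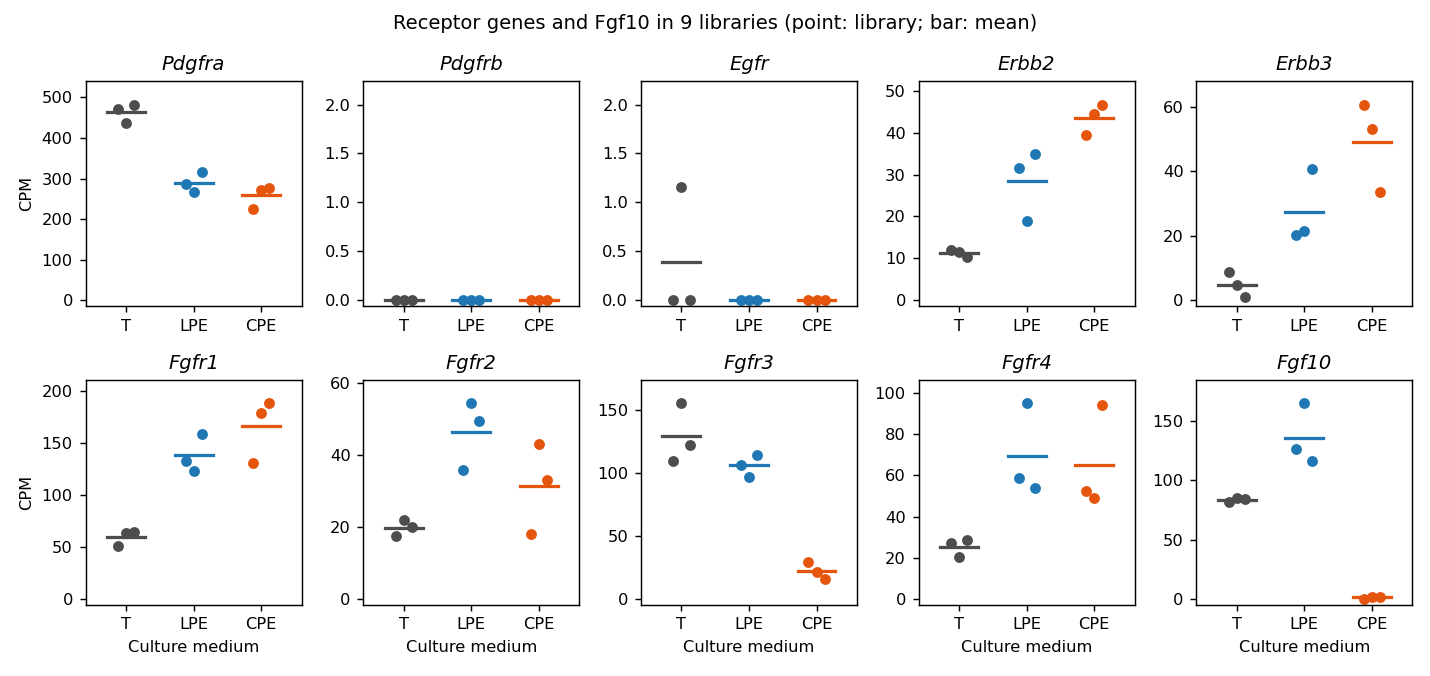
Level of each of the 10 genes (y axis, CPM, a separate linear scale per gene) in the T, LPE and CPE media (x axis); points are libraries and bars are means of 3. Pdgfra was highest in T, Erbb2, Erbb3, Fgfr1 and Fgfr4 were lowest in T, Fgfr3 and Fgf10 were lowest in CPE, and Pdgfrb and Egfr were at or near 0.

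Of the Pdgf receptor genes, Pdgfra was expressed in all 3 media and lower in both defined media than in T, and Pdgfrb was not detected in any medium. Pdgfra, the alpha receptor, stood at 472, 437 and 483 CPM in T, 287, 266 and 316 in LPE and 226, 272 and 278 in CPE. Every T library was above every LPE and CPE library, and the LPE and CPE libraries overlapped. In the same T libraries, in the same order, Col1a1 had 23, 37 and 1 counts, and a link between Col1a1 and Pdgfra was not tested. Means were 464 ± 24.1 CPM in T, against 290.03 ± 25.1 in LPE and 259 ± 28.3 in CPE (SD, n = 3 each). The log2 difference was -0.68 in LPE against T (SE 0.12, 95% interval -0.93 to -0.42, edgeR adjusted p = 5.14e-04) and -0.84 in CPE against T (SE 0.12, interval -1.10 to -0.59, adjusted p = 6.52e-05). Both comparisons share the T libraries. CPE against LPE gave -0.16 (interval -0.42 to 0.088, adjusted p = 0.384), which did not pass the test. Spread between replicates was 5.19% of the mean in T, 8.65% in LPE and 10.9% in CPE.

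Pdgfrb, the beta receptor, had 0 counts in all 9 libraries. At 3 counts per library this allows up to 1.39 to 1.74, 0.932 to 0.962 and 0.681 to 0.966 CPM in T, LPE and CPE, a limit that covers counting error only. Among the 4 Pdgf ligand genes, 2 had 0 counts throughout and Pdgfd alone was tested. Pdgfd, whose product activates mainly the beta receptor, had 6.82 ± 0.239 CPM in T, against 7.86 ± 5.42 in LPE and 14.3 ± 7.59 in CPE, and did not pass the test in any comparison.

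Of the Egf receptor family, Egfr transcripts were at or near 0 with Egf added to every culture, while Erbb2 and Erbb3 rose in both defined media. Egfr, the receptor that binds Egf itself, had 2 counts in T replicate 2 (1.16 CPM) and 0 counts in the other 8 libraries, for which the limits are those given for Pdgfrb. Erbb4, the remaining receptor of the family, had 0 counts in all 9.

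Erbb2, a co-receptor with no known ligand of its own, stood at 12.0, 11.6 and 10.2 CPM in T, 31.6, 19.0 and 34.9 in LPE and 39.5, 44.5 and 46.7 in CPE. The 3 groups did not overlap, with T lowest and CPE highest, and LPE replicate 2 was the lowest of its group. Means were 11.3 ± 0.927 CPM in T, against 28.5 ± 8.44 in LPE and 43.6 ± 3.69 in CPE. Erbb2 was 2.53-fold higher in LPE than in T (log2 1.34, SE 0.34, adjusted p = 0.00808) and rose 3.86-fold from T to CPE (log2 1.95, SE 0.35, adjusted p = 4.72e-04). The step from LPE to CPE, log2 0.61 with an interval of -0.06 to 1.29, did not pass the test (adjusted p = 0.209).

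Erbb3, a receptor for neuregulins, stood at 8.73, 4.63 and 0.930 CPM in T, 20.1, 21.4 and 40.7 in LPE and 60.7, 53.1 and 33.5 in CPE. All T libraries were below all others, and LPE and CPE overlapped. The T values rest on 16, 8 and 2 counts, and their spread was 81.9% of the mean. Erbb3 rose 5.84-fold in LPE against T (log2 2.55, SE 0.55, interval 1.37 to 3.72, adjusted p = 0.00255) and 10.5-fold in CPE against T (log2 3.39, SE 0.55, interval 2.21 to 4.56, adjusted p = 2.36e-04). Without T replicate 1, the T library with most Erbb3 counts, the log2 values were 3.34 and 4.18, and over the fits without 1 library they ran from 2.03 to 3.34 and from 2.87 to 4.18, all called. CPE against LPE gave log2 0.84 (interval -0.14 to 1.82, adjusted p = 0.237), which did not pass.

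Among the 10 listed genes for Egf family ligands, 4 had 0 counts throughout, and Nrg1 and Nrg2 alone were tested. Nrg1, a neuregulin that binds Erbb3 and Erbb4, stood at 332, 287 and 293 CPM in T, 536, 627 and 476 in LPE and 261, 210.1 and 224 in CPE, and the groups did not overlap. It was 1.797-fold higher in LPE than in T (adjusted p = 1.64e-04) and 2.36-fold lower in CPE when set against LPE (adjusted p = 7.63e-06). The fall in CPE against T was 1.31-fold (adjusted p = 0.0303), a call lost without T replicate 1, T replicate 3, CPE replicate 2 or CPE replicate 3 (adjusted p = 0.13, 0.0623, 0.11 and 0.0731). Nrg2, a related ligand gene, had 21.8 ± 5.80, 9.78 ± 4.53 and 12.9 ± 4.43 CPM in T, LPE and CPE and did not pass in any comparison.

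The 4 Fgf receptor genes were all expressed and did not move alike: Fgfr1 and Fgfr4 rose in both defined media, Fgfr2 rose in LPE, and Fgfr3 fell in CPE. Fgfr1 stood at 51.3, 63.1 and 64.2 CPM in T, 133, 123 and 159 in LPE and 131, 179 and 188 in CPE. T was below both other media in every library, and LPE and CPE overlapped. The rise was 2.32-fold in LPE (log2 1.21, SE 0.19, adjusted p = 1.97e-04) and 2.79-fold in CPE (log2 1.48, SE 0.19, adjusted p = 2.63e-05). CPE against LPE gave log2 0.26 (interval -0.12 to 0.65, adjusted p = 0.351), which did not pass.

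Fgfr4, known in early endoderm, stood at 27.3, 20.3 and 28.8 CPM in T, 58.8, 95.1 and 53.8 in LPE and 52.2, 49.1 and 94.4 in CPE. T was again lowest in every library, and 1 library each of LPE and CPE was well above the other 2 of its medium. Fgfr4 was higher than in T by log2 1.44 in LPE (SE 0.32, interval 0.76 to 2.12, adjusted p = 0.00314) and by log2 1.35 in CPE (SE 0.32, interval 0.67 to 2.03, adjusted p = 0.00438). LPE and CPE means were 69.3 ± 22.5 and 65.2 ± 25.3 CPM, a log2 difference of -0.09 (interval -0.73 to 0.55, adjusted p = 0.880) that did not pass.

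Fgfr2, whose splice forms include the main receptor for Fgf10, stood at 17.5, 22.0 and 19.99 CPM in T, 35.8, 54.4 and 49.4 in LPE and 18.0, 42.9 and 33.2 in CPE. LPE was above T in every library, whereas CPE replicate 1 lay among the T values. Gene counts do not tell the splice forms apart. The rise in LPE was 2.35-fold (log2 1.23, SE 0.35, interval 0.48 to 1.98, adjusted p = 0.0149), and its call was lost without T replicate 1 (adjusted p = 0.0728) or T replicate 3 (adjusted p = 0.0565). CPE against T gave log2 0.67 (interval -0.08 to 1.41, adjusted p = 0.168) and was called only without CPE replicate 1 (log2 0.94, adjusted p = 0.0414), among the 17 alternatives run. CPE against LPE gave -0.56 (interval -1.28 to 0.15, adjusted p = 0.280).

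Fgfr3 stood at 109, 155 and 122 CPM in T, 106, 97.0 and 114 in LPE and 29.2, 21.6 and 16.1 in CPE. T and LPE overlapped, and every CPE library was below every other library. Means were 129 ± 23.7, 106 ± 8.73 and 22.3 ± 6.57 CPM. Fgfr3 fell 5.76-fold in CPE against T (log2 -2.53, SE 0.24, interval -3.03 to -2.02, adjusted p = 1.36e-06) and 4.73-fold against LPE (log2 -2.24, SE 0.23, interval -2.74 to -1.74, adjusted p = 7.59e-06). LPE against T gave -0.28 (interval -0.75 to 0.18, adjusted p = 0.370), which did not pass. The promoter stretch printed for Fgfr3 held neither motif searched.

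**Figure D2:**
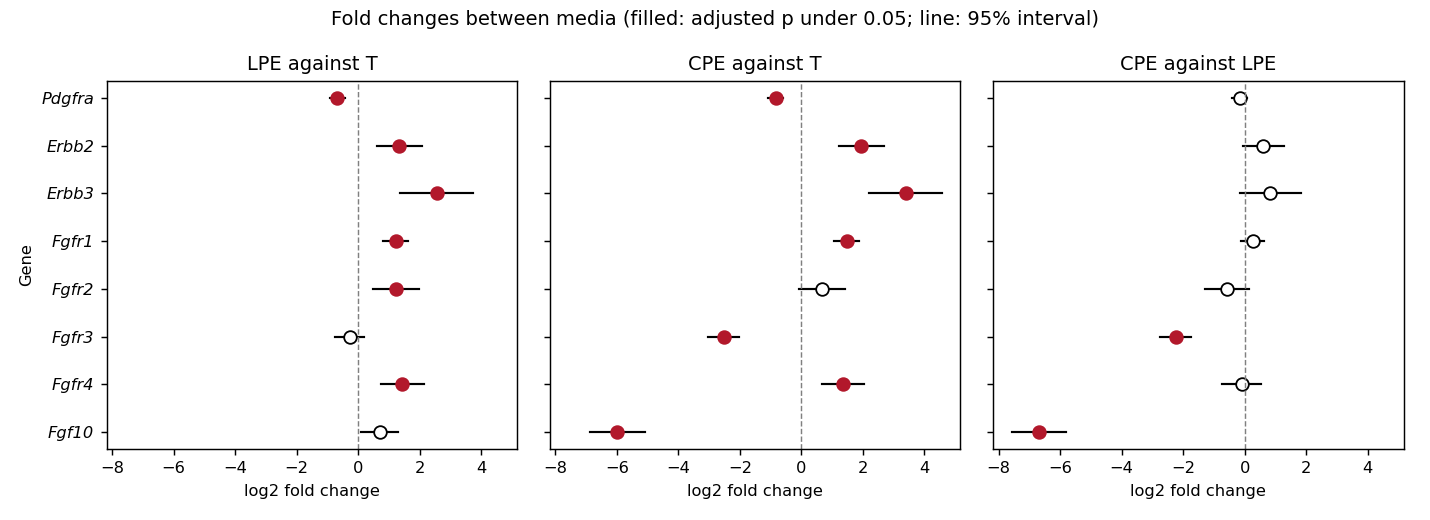
Log2 fold change (x axis) of the 8 tested genes (y axis) in LPE against T, CPE against T and CPE against LPE; lines are 95% intervals and filled points passed at an adjusted p under 0.05. Erbb2, Erbb3, Fgfr1 and Fgfr4 lie to the right of 0 in both comparisons with T, and Fgfr3 and Fgf10 are the filled points in CPE against LPE.

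Of the summed Fgf receptor counts, the share held by Fgfr3 was highest in T and the share held by Fgfr1 was highest in CPE. Of the counts for Fgfr1 to Fgfr4, Fgfr3 held 54.9 ± 4.07% in T, 29.5 ± 2.90% in LPE and 8.30 ± 3.99% in CPE. In the same order Fgfr1 held 25.5 ± 1.59%, 38.4 ± 4.61% and 58.2 ± 2.51%. For both genes the 3 media did not overlap. Fgfr4 held 11.1 ± 2.93%, 19.2 ± 5.88% and 22.6 ± 5.82%, and Fgfr2 8.48 ± 0.0351%, 12.9 ± 2.00% and 10.8 ± 3.51%. These are shares of counts, which grow with transcript length, so they compare media and not 1 receptor with another. A share also falls when the other receptors rise. Fgfr3 itself, at 129 ± 23.7 CPM in T and 106 ± 8.73 in LPE, did not pass in LPE against T (adjusted p = 0.370). The summed level was 234 ± 27.7 CPM in T, against 359.9 ± 23.2 in LPE and 285 ± 51.3 in CPE, and LPE was above T in every library while CPE overlapped T. No test was run on shares or sums.

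**Figure D3:**
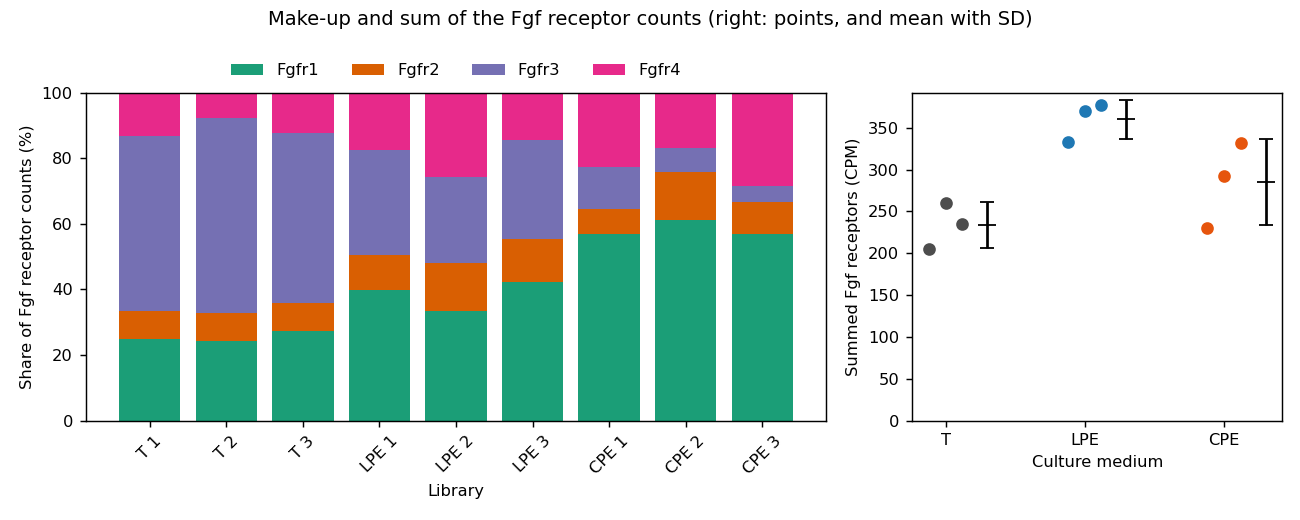
Left, share of the summed Fgf receptor counts (y axis, %) held by each receptor gene in each library (x axis); right, summed level (y axis, CPM) by medium, with points for libraries and the mean with SD of 3. The Fgfr3 share is largest in the T libraries and smallest in the CPE libraries.

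Fgf10, a secreted ligand that binds heparan sulphate, was expressed in T and LPE and reached at most 1.93 CPM in CPE. It stood at 81.3, 85.1 and 84.2 CPM in T, 126, 165 and 116 in LPE and 0, 1.82 and 1.93 in CPE. The CPE values rest on 0, 8 and 6 counts, against 147 to 181 in T and 361 to 530 in LPE. No groups overlapped, and LPE was highest. Means were 83.5 ± 1.99, 135 ± 25.9 and 1.25 ± 1.08 CPM. Fgf10 fell 63.3-fold in CPE against T (log2 -5.98, SE 0.42, interval -6.88 to -5.09, adjusted p = 7.29e-08) and 102.6-fold against LPE (log2 -6.68, SE 0.42, interval -7.57 to -5.79, adjusted p = 3.56e-08). Both falls were called under each of the 17 alternatives run, with log2 values from -6.59 to -5.46 against T and -7.27 to -6.15 against LPE.

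The higher level of Fgf10 in LPE than in T, log2 0.70 with an interval of 0.097 to 1.30, missed the threshold (adjusted p = 0.0761) although the libraries did not overlap. It passed with DESeq2 (adjusted p = 0.0183), with limma voom (adjusted p = 0.00428), with the 2 media fitted alone (adjusted p = 0.00907) and without CPE replicate 1 (adjusted p = 0.0128), and adjusted p ran from 0.00428 to 0.205 over the 17 alternatives. Among the 21 other listed Fgf ligand genes, 13 had 0 counts throughout and 0 had enough counts to be tested, so Fgf10 was the single Fgf ligand gene tested. Fgf8, a ligand of the early embryo, had 13, 1 and 0 counts in CPE (1.35 ± 2.15 CPM) and 0 counts in T and LPE. Most of its reads thus came from CPE replicate 1.

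Counted together for LPE against T, 5 of the 8 tested genes were higher (Erbb2, Erbb3, Fgfr1, Fgfr2 and Fgfr4), 1 was lower (Pdgfra) and 2 did not pass, and 7 of 8 did not overlap between media. Over all 9130 genes tested, 29.7% were called in that comparison (15% higher and 14.7% lower) and 47.3% did not overlap. For CPE against T, 4 were higher (Erbb2, Erbb3, Fgfr1 and Fgfr4), 3 were lower (Pdgfra, Fgfr3 and Fgf10) and 1 did not pass, with 7 of 8 not overlapping, against 32.1% called (16.8% higher and 15.3% lower) and 54.4% not overlapping over all genes. For CPE against LPE, 0 were higher by edgeR (and 0 at an unadjusted p under 0.05, by DESeq2 or by limma voom), 2 were lower (Fgfr3 and Fgf10) and 6 did not pass, with 3 of 8 not overlapping, against 17.8% called (9.56% higher and 8.23% lower) and 31.3% not overlapping. Median log2 differences of the 8 were 1.22, 1.01 and -0.13 in these comparisons, beside -0.03, -0.01 and 0.01 over all genes. The 8 leave out Pdgfrb and Egfr, which had too few counts, so these counts and medians describe the tested genes only.

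Other receptors and co-receptors moved both ways. Their list also holds receptors of other ligands. Of these, Kit was among the rises in LPE and CPE against T, and Insr among those in CPE against T. Of 16 listed genes for other receptors and co-receptors, 11 were tested: 3 rose and 3 fell in LPE against T, 3 rose and 2 fell in CPE against T, and 1 rose and 2 fell in CPE against LPE. Sdc4, a syndecan that carries heparan sulphate, rose from 25.7 ± 6.77 CPM in T to 264 ± 38.2 in LPE (10.2-fold) and 129 ± 33.1 in CPE (4.98-fold), and it fell 2.04-fold in CPE against LPE. The list's median log2 difference was -0.01, -0.24 and 0.19 in the 3 comparisons. Sdc3, another syndecan, fell 14.7-fold in CPE against LPE (2.29 ± 3.17 against 35.9 ± 9.05 CPM, log2 -3.87). Its CPE counts were 0, 26 and 3, and without CPE replicate 2 the log2 value was -6.13, while with limma voom it was -4.98. Kit, the receptor for stem cell factor and a relative of Pdgfra, rose 3.60-fold in CPE against T, from 64.5 ± 2.22 to 232 ± 66.7 CPM. The glypican genes Gpc1 and Gpc3 had 46.9 ± 6.74 and 34.4 ± 10.97 CPM in T and at most 8.55 and 5.13 CPM in any LPE or CPE library, and every T library lay above every other. Their falls against T were called by edgeR with all libraries but not by DESeq2 (adjusted p = 0.0732 and 0.201 in LPE, 0.0850 and 0.0980 in CPE). By edgeR the Gpc1 calls in LPE and CPE were lost without T replicate 2 (adjusted p = 0.0508 and 0.0548), and the Gpc3 call in LPE was lost without T replicate 1 (0.0623) or T replicate 2 (0.0962).

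Of 21 tested adaptors and docking proteins, 3 rose and 2 fell in LPE against T, 4 rose and 2 fell in CPE against T, and 2 rose and 2 fell in CPE against LPE. Gab1, which docks PI3 kinase and the phosphatase Shp2, rose from 150.2 ± 5.24 CPM in T to 459 ± 47.7 in LPE (3.05-fold, adjusted p = 1.76e-07) and 404 ± 31.1 in CPE (2.69-fold, adjusted p = 4.30e-07). Ptpn11, the gene for Shp2, fell 2.23-fold in LPE against T, from 313 ± 10.4 to 140.1 ± 15.9 CPM (adjusted p = 1.31e-05), and was 1.64-fold higher in CPE than in LPE (adjusted p = 0.00154). Sos1, a Ras exchange factor, rose 2.47-fold in LPE and 2.21-fold in CPE, both against T. Frs2, the docking protein of Fgf receptors, rose 2.54-fold in CPE against T, and its 1.49-fold difference in LPE against T did not pass. Grb10, an inhibitory adaptor, had 0 counts on its own strand in every LPE library, at least 8.09-fold below T and at least 16.4-fold below CPE by a floor of 3 counts, which covers counting error only. With reads of either strand counted, its log2 values were -1.55 in LPE against T and 2.57 in CPE against LPE, smaller than these bounds, and neither was called (adjusted p = 0.345 and 0.140). The list's median log2 difference was 0.01, 0.13 and 0.12 in the 3 comparisons.

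Of 17 tested Ras, Raf, Mek and Erk genes, 0 rose and 2 fell in LPE against T, 1 rose and 4 fell in CPE against T, and 3 rose and 0 fell in CPE against LPE. Both counts of 0 were also 0 at an unadjusted p under 0.05, by DESeq2 and by limma voom. Rras2, a Ras-related GTPase, fell from 971 ± 21.0 CPM in T to 444 ± 43.0 in LPE (2.19-fold) and 612 ± 62.9 in CPE (1.59-fold). Hras fell 1.91-fold in CPE against T, and its 1.53-fold difference in LPE against T did not pass. Rasgrp1 had 81, 25 and 56 counts in CPE, 1, 0 and 0 in T and 0 in every LPE library. It was called higher in CPE than in T (log2 6.18, adjusted p = 0.00407) and than in LPE (adjusted p = 0.00211). By a floor of 3 counts, CPE was at least 16.7-fold above LPE. Rps6ka2 fell from 47.0 ± 5.69 CPM in T to 3.84 ± 6.64 in LPE and 5.75 ± 3.51 in CPE. Both falls were called by edgeR but not by DESeq2 (adjusted p = 0.0908 and 0.161). Of 13 PI3 kinase and Akt genes, 1 rose and 2 fell in LPE against T, 0 passed the edgeR test in CPE against T, and 2 rose in CPE against LPE. In CPE against T, 0 of the 13 also had an unadjusted p under 0.05 or were called by DESeq2 or limma voom. Inppl1, a phosphatase that acts on the lipid product of PI3 kinase, was 2.08-fold lower in LPE than in T. The median log2 differences were -0.29, 0.10 and 0.25 for the Ras to Erk genes and -0.38, -0.21 and 0.32 for the PI3 kinase genes.

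Of 20 tested genes for receptor inhibitors, degradation and shedding, 3 rose and 1 fell in LPE against T, 5 rose and 2 fell in CPE against T, and 2 rose and 1 fell in CPE against LPE. Ptprf, a receptor tyrosine phosphatase, and Hgs, which sorts receptors to the lysosome, rose 2.63-fold and 2.61-fold in LPE against T. Ptprf had 66.4 ± 7.86, 175 ± 18.1 and 148 ± 17.5 CPM in T, LPE and CPE. Hgs had 30.5 ± 4.41, 79.3 ± 9.15 and 68.8 ± 7.51 CPM in the same order. Flrt2, a membrane protein that binds Fgf receptors, and the shedding protease gene Adam9 rose 4.04-fold and 3.31-fold in CPE against T. Flrt2 had 9.60 ± 1.41, 24.0 ± 6.70 and 38.9 ± 14.1 CPM in T, LPE and CPE. Adam9 had 17.8 ± 5.71, 31.6 ± 7.77 and 59.4 ± 8.63 CPM. Flrt3, a relative of Flrt2, had 1098 ± 64.2 CPM in T and fell 1.29-fold in LPE and 1.59-fold in CPE. Of 10 tested heparan sulphate genes, 0 rose by edgeR (1 at an unadjusted p under 0.05, 1 by DESeq2 and 0 by limma voom) and 1 fell in LPE against T, 2 rose and 1 fell in CPE against T, and 2 rose and 1 fell in CPE against LPE. Hs6st2, a sulphotransferase, was higher in CPE than in T (1.88-fold) and than in LPE (2.31-fold), while Hs3st1, another sulphotransferase, fell 2.22-fold in CPE against T. Median log2 differences were 0.11, 0.39 and 0.18 for the inhibitors and -0.23, 0.58 and 0.72 for the heparan sulphate genes.

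**Figure D4:**
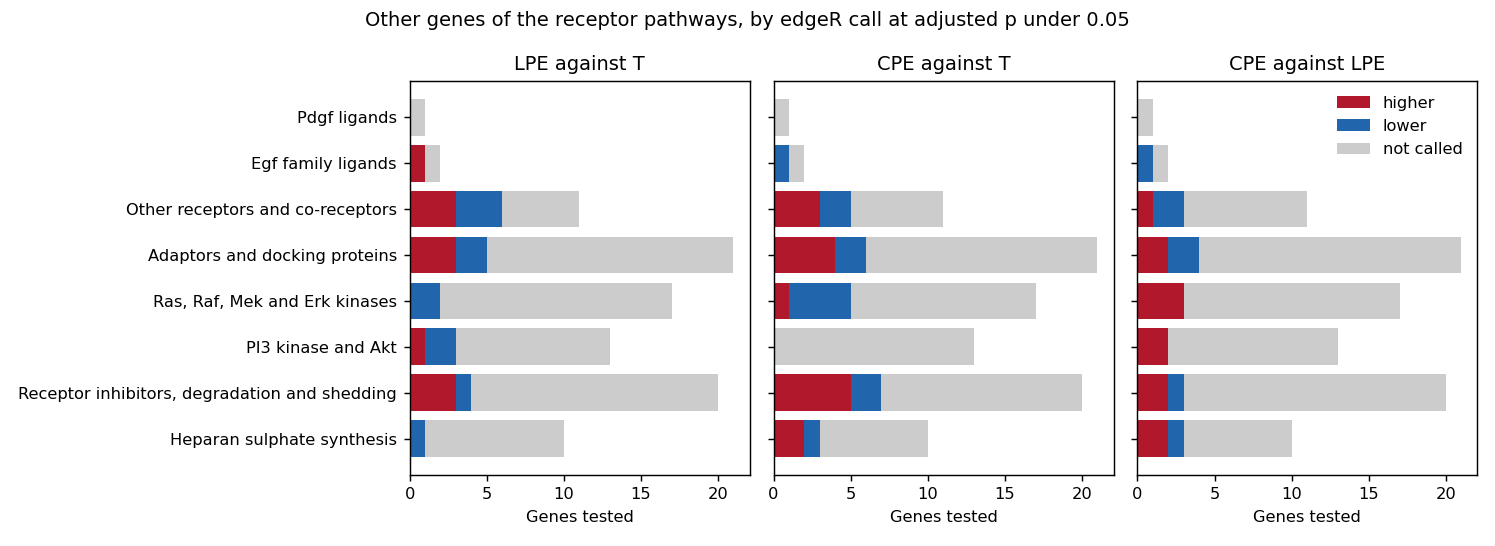
Number of genes tested (x axis) in each list of other pathway genes (y axis), by edgeR call at an adjusted p under 0.05, in the 3 comparisons. Most genes of each list with 10 or more tested genes did not pass, except that 6 of 11 other receptors and co-receptors passed in LPE against T. With DESeq2, 3 of those 11 passed. Over all 9130 genes tested, 29.7%, 32.1% and 17.8% passed by edgeR in LPE against T, CPE against T and CPE against LPE.

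Over these lists, 95 genes were tested, and 23.2% were called in LPE against T (11 higher and 11 lower), 28.4% in CPE against T (15 higher and 12 lower) and 20% in CPE against LPE (12 higher and 7 lower). These shares lie near the 29.7%, 32.1% and 17.8% over all genes, so they are no result about the lists.

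Genes with the pattern most like that of a receptor were sought among 7336 genes, as the smallest root mean square difference in centred log2 CPM over the 9 libraries. Nearest to Pdgfra were the cap-binding factor gene Eif4e, Wdr48, a partner of deubiquitinating enzymes, and the ribosomal protein gene Rpl27, at 0.077, 0.077 and 0.079, against a median of 0.58 over all candidates. Nearest to Erbb2 were the glycosyltransferase gene Gyltl1b (0.19), the mitochondrial phosphate carrier gene Slc25a3 (0.20) and the desaturase gene Fads2 (0.20), against a median of 0.94. Nearest to Fgfr1 were the ferritin gene Fth1 (0.15), Arap2 (0.17) and Sppl2b (0.17), against a median of 0.81. Rpl27 and Fth1 have close copies in the genome and are uncertain, since multimapping reads entered no gene.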

How the data were processed

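RNA sequencing libraries of pXEN cells in 3 media, 3 per medium, were grouped by their labels. Ribosomal RNA was removed and a strand-keeping kit was used, per the labels' protocols. CASAVA 1.8.2, Trimmomatic 0.33, STAR 2.5.1, DESeq2 and build rn6 are named, per the submitters' processing notes. The DESeq2 version and the annotation are not given in the sources used here. The authors deposited raw counts of reads per gene for either strand and for each strand. The gene-strand counts were used, since the opposite strand held 0.822% to 0.986% of gene reads. Summary lines were kept out: unmapped reads (6.32% to 8.67%), multimapping reads (64.9% to 67.6% in T, 51.7% to 59.9% in LPE and CPE), those with no gene (13.9% to 26.1%) and ambiguous ones (1.11% to 2.46%).

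All 9 libraries entered a single edgeR 4.0.16 fit in R 4.3.3, with a term for each medium and TMM scaling, and contrasts were tested by quasi-likelihood F. A filter, filterByExpr with a minimum count of 10 and a minimum total of 15, left 9130 genes. P-values were adjusted by Benjamini-Hochberg over those genes, and a call is an adjusted p under 0.05. Calls are edgeR's unless another tool is named. CPM use TMM factors. The standard error is the log2 fold change over the square root of F. Alternatives used DESeq2 1.42.0 and limma 3.58.1, other scalings, no filter, either strand, 2 media only, a replicate block and leaving out each library. The method was also tested on simulated data with 200 changed genes. In LPE against T, CPE against T and CPE against LPE it found 38%, 43% and 37% of 2-fold changes. It found 82%, 78% and 74% of 4-fold changes, and 3 of 123, 7 of 128 and 5 of 116 calls were false. The changed genes had a mean of at least 5 CPM. They were far fewer than the 2716, 2928 and 1624 genes called in the data, so these rates may not hold there. A result that did not pass is still no sign that a gene was unchanged. No transcript lengths were used, so levels are compared between media and not between genes.

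The genes and the 9 pathway lists (150 genes, 140 listed) were chosen with earlier results of these data known. Pathway genes were named as up to 2 largest rises and 2 largest falls per list and comparison, called and reaching 1 CPM in the higher medium. Not every gene so picked is printed. Genes of like pattern had to reach a mean of 10 CPM.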

Additional observations from a re-analysis of the deposited data

Results flagged for a closer look

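Reads on the opposite strand of Fgfr4 were looked at because the comparisons use gene-strand counts only. CPE replicate 1 had 10 such reads beside 177 on the gene strand, and no T library had more than 1.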

How the results depend on the processing

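Over 24 results for the 8 tested receptor and ligand genes and 17 alternatives, 408 values were computed, of which 398 kept their direction and their side of the threshold. The 2 lost calls and 1 of the 5 gained calls concern Fgfr2 and the other 4 gained calls concern Fgf10 in LPE against T, as given with those genes. The remaining 3 changed sign, all for Fgfr4 in CPE against LPE, which was not called: log2 0.20 without LPE replicate 2, 0.05 without CPE replicate 1 and 0.08 without CPE replicate 2, where fewer samples entered the fit (range -0.45 to 0.20 over the 9 fits without 1 library). Leaving out 1 library gave 1896 to 2853 called genes in LPE against T, 2083 to 3490 in CPE against T and 1298 to 1758 in CPE against LPE, and the other alternatives gave 2558 to 2952, 2751 to 3907 and 1103 to 1921. Of 55 named pathway results, 26 lost their call under at least 1 of the 17 alternatives.

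Same-numbered libraries showed no shared deviation: 0 of 9 pairs had a correlation of deviations over 0.1 (range -0.027 to 0.012). Only 1 of 9 libraries correlated best with its own number. These values cannot show that such libraries share nothing but a number. With a replicate block, 2558, 2751 and 1500 genes were called in the 3 comparisons and 6, 7 and 2 of the 8 tested genes, the same numbers as without it. Depth limits what can be said of Pdgfrb and Egfr, and genes with few counts in T, such as Erbb3, have wide intervals.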
